A study of Mus musculus with 4 samples.

Results

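The genes described here are 10 components of fibrous extracellular matrix in the mouse lens. They are the fibrillar collagen genes Col1a1, Col1a2, Col3a1, Col5a1 and Col5a2, the fibril-associated collagen gene Col9a2, the proteoglycan genes Bgn and Dcn, and the matricellular genes Spp1 and Postn. They were selected by name, 10 of the 56748 genes in the table, with the difference between mutant and control lenses already known. Their mutant and control values are therefore given as a description, and no p is given for any single one of them. Counts of them past a threshold are given only beside the share of all genes.

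Lens RNA was sequenced from mice aged 10 to 12 days in 2 mutant and 2 control libraries. The mutant genotype was Fsp1-cre;Pdgfrb+/D849V, in which cre removes a block on a Pdgfrb allele carrying the activating substitution D849V. The labels give Fsp1-cre;Pdgfrb+/+ for the controls, whereas by the study's methods the control pools also took in mice without cre, with and without the mutant allele. Lenses of several mice went into each library, and the study gives a number per group but none per library. The line was on the FVB/N background and also carried a Rosa-LSL-tdTomato reporter. The Fsp1 (S100a4) promoter is not restricted to the lens, since it is also active in fibroblasts and some leukocytes, so cre activity outside the lens was possible in the mutant mice.

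Type I, III and V collagens are assembled into banded fibrils that give connective tissue its tensile strength. Type IX collagen lies on the surface of type II collagen fibrils in cartilage and vitreous. Biglycan and decorin are small leucine-rich proteoglycans that bind fibrils, and osteopontin and periostin are secreted proteins that link matrix to cell surface integrins. A healthy lens is enclosed in a basement membrane, the capsule, built mainly of type IV collagen and laminin. Lens epithelial cells that turn into myofibroblast-like cells, as in fibrotic forms of cataract, lay down fibrillar collagen.

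Values are FPKM, fragments scaled to gene length in kilobases and to library size, as deposited. Whole read numbers were recovered from them, and the 4 libraries held 18561682 to 18878768 reads, of which crystallin genes took 58.6% to 62.9%. The 10 matrix genes together held 681 and 1009 reads in mutant replicates 1 and 2, and 617 and 509 in control replicates 1 and 2. These were 0.00361% and 0.00540% of the mutant reads and 0.00332% and 0.00273% of the control reads. Most of the values below accordingly rest on few reads. Lens identity was plain in every library: Cryaa, a lens chaperone, lay between 66165 and 74239 FPKM, and the fibre cell genes Mip and Bfsp1 lay above 2911 FPKM, whereas Lim2, another fibre cell gene, was listed at 0 in all 4 libraries. Pdgfrb itself was at 2.36 and 2.16 FPKM in the mutant and 2.25 and 1.79 FPKM in the control libraries. A read count does not separate the mutant from the wild-type allele.

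The stretches just upstream of the start sites are printed for 3 of the genes that were higher in both mutant libraries than in both controls. RefSeq windows (build GRCm38.p6) were available for 7 of the 10 genes, and 5 of these windows were free of annotated exons. All 3 are read 5′ to 3′ on the plus strand and cover the 150 bases before the start site, and capitals mark a match to any of 5 motifs searched on both strands. The Bgn window lies at chrX:73483451-73483600, the Spp1 window at chr5:104434961-104435110 and the Postn window at chr3:54360957-54361106. The Spp1 window belongs to the upstream of 2 RefSeq start sites.
Bgn: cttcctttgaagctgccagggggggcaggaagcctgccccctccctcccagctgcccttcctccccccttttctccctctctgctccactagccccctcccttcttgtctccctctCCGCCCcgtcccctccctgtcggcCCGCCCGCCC
Spp1: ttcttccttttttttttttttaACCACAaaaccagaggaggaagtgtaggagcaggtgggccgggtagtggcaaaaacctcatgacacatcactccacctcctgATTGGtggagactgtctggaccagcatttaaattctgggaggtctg
Postn: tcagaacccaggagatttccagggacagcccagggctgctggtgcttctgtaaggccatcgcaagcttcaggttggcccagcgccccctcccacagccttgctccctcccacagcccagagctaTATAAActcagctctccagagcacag

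The motifs were the TATA box TATAAA, the CCAAT box CCAAT, the Runx motif ACCACA, the AP-1 motif TGANTCA and the GC box GGGCGG. In the Bgn window there were 3 matches to the GC box on the reverse strand, from base -34, -10 and -6 before the start site, and the last 2 overlap each other. In the Spp1 window there was a Runx match at base -128 to -123 and a reverse CCAAT match at base -46 to -42. The Postn window held a TATA match at base -26 to -21, and none of the 3 windows held the AP-1 letters. Among the 32851 RefSeq windows of the same length, 28.6% held the GC box, 24.5% the CCAAT box, 8.40% the Runx motif, 7.57% the TATA box and 4.24% the AP-1 motif. The 3 windows had no motif in common. A match is a run of letters and not a measured binding site.

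**Figure D1:**
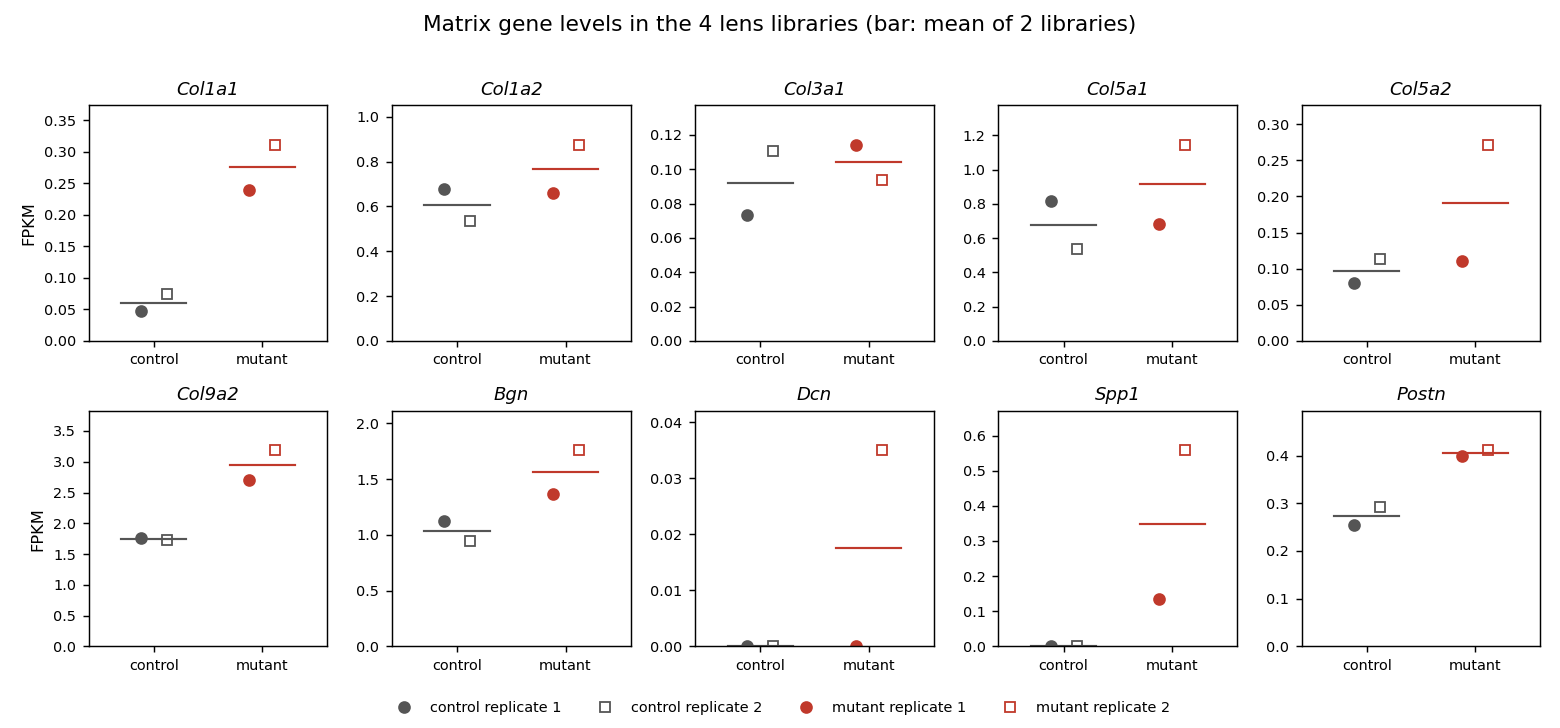
FPKM (vertical axes, each gene on its own linear scale from 0) of the 10 matrix genes in control (grey) and mutant (red) lens libraries. Filled circles are replicate 1, open squares replicate 2 and bars the mean of 2 libraries. Both mutant points lie above both control points for Col1a1, Col9a2, Bgn, Spp1 and Postn, and the groups overlap for the other 5 genes.

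Type I collagen is a trimer of chains encoded by Col1a1 and Col1a2. Col1a1 (ENSMUSG00000001506, chr11:94827050-94843868, build mm39) was at 0.239 and 0.311 FPKM in the mutant libraries and at 0.0470 and 0.0744 FPKM in the controls. Both mutant values were thus above both control values, and the mean was 4.54-fold higher, 0.275 ± 0.0509 against 0.0607 ± 0.0194 FPKM (SD, n = 2 each). Behind them stood 28 and 40 mutant reads and 6 and 9 control reads. The summed reads were 68 (95% exact Poisson interval 52.8 to 86.2) against 15 (8.40 to 24.7), intervals that cover counting error only. On the log2(FPKM + 0.1) scale, which understates changes of low genes, the difference was 1.22 (SE 0.45), and by voom on the recovered reads it was 2.15 (SE 0.58) with the deposited denominators and 2.10 with library totals. In bulk tissue a larger number of cells of one kind and more RNA per cell cannot be told apart, here or for the genes that follow.

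Col1a2 (ENSMUSG00000029661, chr6:4504814-4541544), which encodes the partner chain, was at 0.659 and 0.876 FPKM in the mutant and 0.679 and 0.537 FPKM in the control libraries. The groups overlapped, since mutant replicate 1 lay below control replicate 1. The log2 difference was 0.29 (SE 0.23), from 146 and 213 mutant and 164 and 123 control reads. Col1a1 and Col1a2 thus differed in how far the mutant and control libraries stood apart, although their products are used in 1 trimer.

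The ratio of the levels of Col1a2 to Col1a1 was 2.75 and 2.81 in the mutant libraries and 14.4 and 7.22 in the controls. The ratio was lower in both mutant libraries than in both controls, and in every library Col1a2 was the more abundant of the chains per kilobase. The deposited length of Col1a2 was 12426 bases, 2.32 times that of its longest principal transcript in GENCODE M21. With principal transcript lengths the ratios were 5.78 and 5.90 in the mutant libraries and 30.3 and 15.2 in the controls, and the separation was the same. As the ratio rests on the 15 control reads of Col1a1, its control values are imprecise.

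**Figure D2:**
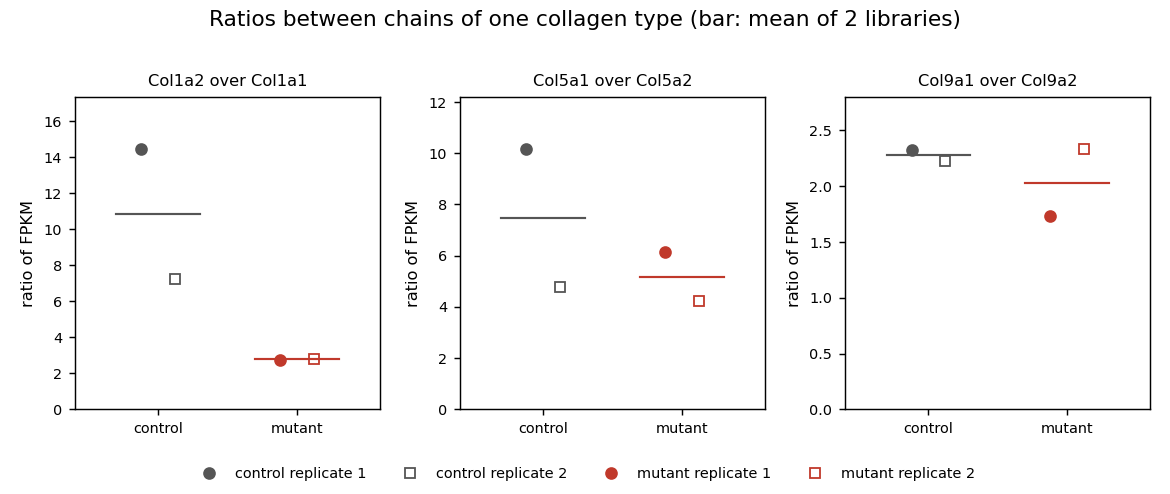
Ratio of the FPKM of chains of the same collagen type (vertical axes, linear from 0) in control (grey) and mutant (red) libraries, with bars for the mean of 2 libraries. The Col1a2 to Col1a1 ratio is 2.75 and 2.81 in the mutant libraries against 14.4 and 7.22 in the controls, while the Col5a1 to Col5a2 and Col9a1 to Col9a2 ratios overlap between the groups.

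Col3a1 (ENSMUSG00000026043, chr1:45350698-45388866), whose product forms type III collagen fibrils in skin and vessel walls, showed no separation of the groups. It was at 0.114 and 0.0937 FPKM in the mutant and 0.0733 and 0.111 FPKM in the control libraries, from 14 to 20 reads per library. Its mean over the 4 libraries, 0.0980 FPKM, lay just under the 0.1 FPKM needed for the fit across genes. The difference of the group means was 0.09 on the log2 scale, and it was -0.05 without control replicate 1.

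Type V collagen sits in the core of type I fibrils and limits their width. Its chain gene Col5a1 (ENSMUSG00000026837, chr2:27776437-27929526) was at 0.682 and 1.15 FPKM in the mutant and 0.817 and 0.539 FPKM in the control libraries. The groups overlapped and the log2 difference was 0.37 (SE 0.32), from 104 and 192 mutant and 136 and 85 control reads. Without mutant replicate 2 the difference was 0.03, and without mutant replicate 1 it was 0.70.

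Col5a2 (ENSMUSG00000026042, chr1:45413481-45542442) encodes the other main type V chain and lies next to Col3a1, on the opposite strand, with 24614 bases between them. It was at 0.111 and 0.272 FPKM in the mutant and 0.0804 and 0.113 FPKM in the control libraries, from 19 and 51 mutant and 15 and 20 control reads. The higher mean came from mutant replicate 2, while mutant replicate 1 lay within the control range. The log2 difference was 0.51 (SE 0.53), and it was 0.11 without mutant replicate 2. The Col5a1 to Col5a2 ratio was 6.13 and 4.22 in mutant against 10.2 and 4.76 in control lenses, so that the groups overlapped.

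Col9a2 (ENSMUSG00000028626, chr4:120896582-120912519), a chain of type IX collagen, was the most abundant of the 10 genes by FPKM. It was at 2.70 and 3.19 FPKM in the mutant and 1.76 and 1.74 FPKM in the control libraries. The 2 control values differed by far less than the distance to the mutant values, and the mean was 1.68-fold higher in the mutant, 2.94 ± 0.343 against 1.75 ± 0.0184 FPKM (SD, n = 2 each). The log2 difference was 0.71 (SE 0.14), the smallest SE among the 8 members fitted. It rested on 149 and 193 mutant and 106 and 99 control reads.

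Type IX collagen has 2 further chains, whose genes are not among the 10. Col9a1 was at 4.67 and 7.43 FPKM in the mutant and 4.10 and 3.86 FPKM in the control libraries, and Col9a3 was at 1.56 and 2.32 FPKM against 1.40 and 1.39 FPKM. Both were thus higher in each mutant library than in either control, with log2 differences of 0.55 (SE 0.23) and 0.42 (SE 0.22). Neither passed limma's test across all genes (adjusted p = 0.806 for Col9a1 and 0.811 for Col9a3). Over the alternatives tried, the adjusted p for Col9a1 ranged from 0.00206 to 0.962. The lowest was from voom with a term for the sex makeup of the libraries. The Col9a1 to Col9a2 ratio was 1.73 and 2.33 in mutant against 2.33 and 2.23 in control lenses, so the groups overlapped. The Col9a1 to Col9a3 ratio was 2.93 and 2.77 in control lenses and slightly higher in both mutant libraries, up to 3.20.

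Bgn (ENSMUSG00000031375, chrX:72527208-72539539) encodes biglycan. It was at 1.37 and 1.76 FPKM in the mutant and 1.12 and 0.943 FPKM in the control libraries. The groups did not overlap and the mean was 1.52-fold higher in the mutant, with a log2 difference of 0.55 (SE 0.19) and 149 and 210 mutant against 133 and 106 control reads. Bgn is X-linked, and the libraries differed in sex makeup. Xist, the transcript that silences an X chromosome in female cells, was at 7.62 and 13.1 FPKM in the mutant and 15.6 and 5.56 FPKM in the control libraries. In each group the library with more Xist was also the one with more Bgn, but the group means of Xist were close, and its part in the Bgn values was not tested.

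Dcn (ENSMUSG00000019929, chr10:97315471-97354005) encodes decorin, a proteoglycan typical of fibroblasts. It had 4 reads in mutant replicate 2 and none in the other 3 libraries, where a count of 0 allows up to 3 reads. No difference was detectable at this depth, and the gene did not enter the fit. Among the other small leucine-rich proteoglycans, Lum, Kera, Omd and Epyc also had 0 reads in all 4 libraries.

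Spp1 (ENSMUSG00000029304, chr5:104582984-104588916) encodes osteopontin, which is made by bone cells, activated macrophages and many injured tissues. It was at 0.136 and 0.558 FPKM in the mutant libraries and listed at 0 in both controls. The reads were 4 and 18 in the mutant libraries and 0 and 0 in the controls. Against the floor of 3 reads for the control group, the summed mutant level was 7.43-fold higher, with the mutant count taken as exact. By the exact Poisson interval used for Col1a1, the sums were 22 (13.8 to 33.3) mutant and 0 (0 to 3.69) control reads. The ratio is therefore not a lower bound. The log2 difference of 1.98 (SE 0.71) depends on the pseudocount. Most of the signal came from mutant replicate 2, and without that library the difference was 1.24.

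Postn (ENSMUSG00000027750, chr3:54268530-54298458) encodes periostin, a matricellular protein of tendon, bone surface and healing tissue that binds collagen. It was at 0.400 and 0.411 FPKM in the mutant and 0.254 and 0.293 FPKM in the control libraries. The mutant values lay close together and above both control values, a 1.48-fold higher mean, with a log2 difference of 0.44 (SE 0.27). It had 62 and 70 mutant reads against 43 and 47 control reads, with sums of 132 (110 to 157) and 90 (72.4 to 111) by the same exact Poisson interval.

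The genes ranged from low to upper middle levels among those of the lens. Of 15835 protein-coding genes with any reads, 69.9% had a lower mean FPKM than Col9a2, 57.4% than Bgn, 48.3% than Col5a1 and 45.6% than Col1a2. The shares were 35.7% for Postn, 28.4% for Spp1, 28.0% for Col1a1, 26.5% for Col5a2, 23.0% for Col3a1 and 5.21% for Dcn. In both groups the order of the levels per kilobase began with Col9a2, Bgn, Col5a1 and Col1a2, followed by Postn. Col5a1 and Col1a2 overlapped in both groups and cannot be ordered, while Col9a2, Bgn and the pair below them did not overlap.

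Below Postn the order differed between the groups. In the mutant libraries Spp1, Col1a1, Col5a2 and Col3a1 followed, each overlapping the gene above it. In the controls Col5a2, Col3a1 and Col1a1 followed, with Col5a2 below Postn and the others overlapping the gene above. With principal transcript lengths in place of the deposited lengths, Bgn came before Col9a2 in both groups, at 3.46 and 4.43 against 2.86 and 3.37 FPKM in the mutant libraries. The order between genes therefore depended on the length used, whereas the plain ratios between libraries of 1 gene did not. The log2 differences with 0.1 added and the filter do depend on it. With its principal transcript length Col3a1 had means of 0.183 FPKM in mutant and 0.162 FPKM in control libraries, above the filter.

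Of the 10 genes, 8 passed the filter of a mean of at least 0.1 FPKM. Col1a1, Col5a2 and Spp1 passed through their mutant level, since their control means lay under it. All 8 had a positive log2 difference, and over all 10 the median was 0.48, beside 0.0041 over all 15997 genes tested. The 10 were selected on this comparison, so their shared direction is no result. None of the 8 passed limma's test at an adjusted p under 0.05, which 0.0375% of all genes tested did. At an unadjusted p under 0.05, 4 of the 8 were higher, beside 3.39% of all genes. None passed voom on the recovered reads with the deposited denominators, which 0.0875% of all genes did. The 2 mutant libraries lay above both controls for 5 genes, beside 18.2% of all genes tested. These counts come from the comparison on which the genes were selected, 3 of which passed the filter only through the mutant libraries, and nothing is read from them. With 2 libraries per group the smallest 2-sided p that an exact permutation test can give is 0.333. As nothing says that the libraries came from separate litters or days, the SEs measure only the spread between these libraries.

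**Figure D3:**
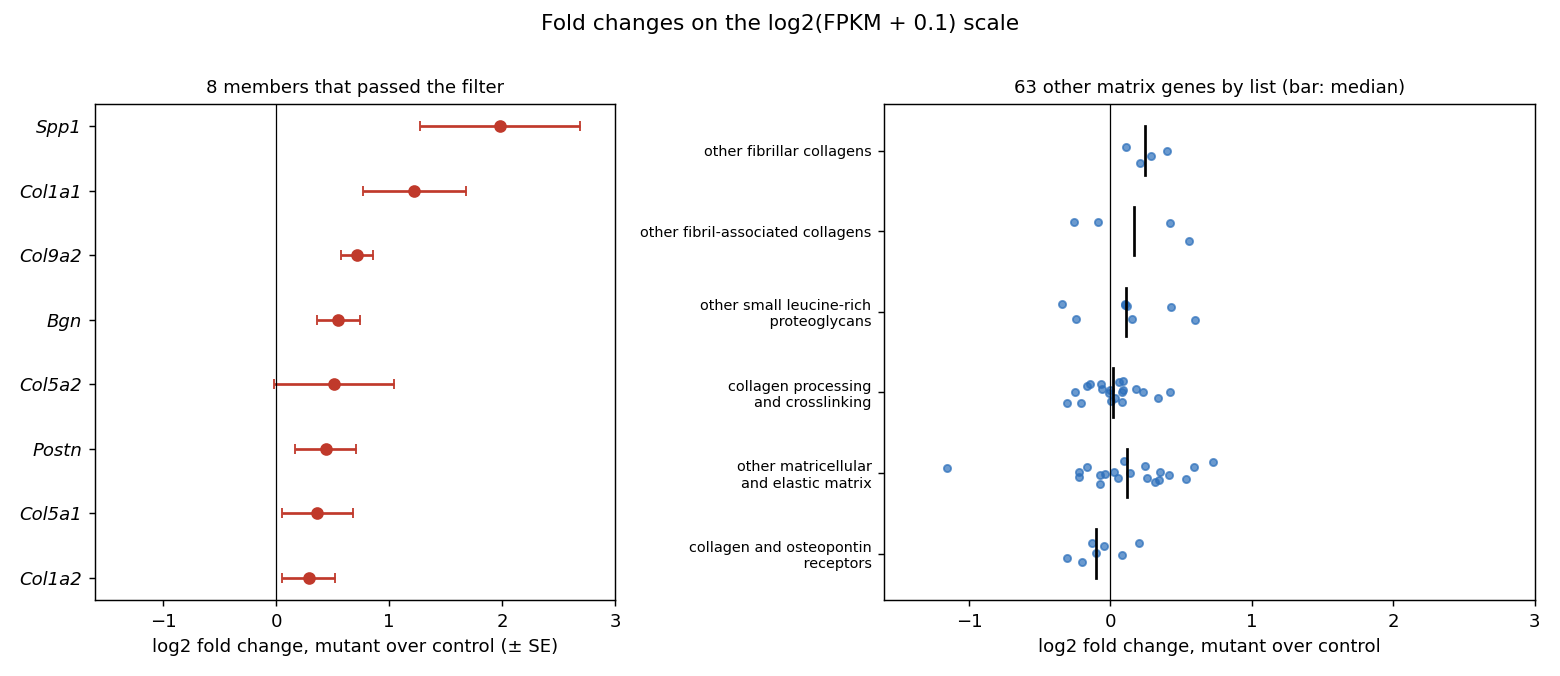
Log2 difference between mutant and control (horizontal axes) for the 8 of the 10 genes that passed the filter, with SE bars (left), and for 63 other matrix genes as points by list, with a bar at each list's median (right). The left values run from 0.29 for Col1a2 to 1.98 for Spp1, whereas the other matrix genes have a median of 0.08.

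The other genes of matrix assembly were taken from 6 lists holding 95 genes, of which 94 were in the table and 63 passed the filter. Of the 63, 38 had a positive and 25 a negative log2 difference, with a median of 0.08. None passed limma's or voom's test at an adjusted p under 0.05. By limma 3 (Optc, Pcolce and Ltbp2) had an unadjusted p under 0.05, each higher in the mutant, beside 542 higher of all 15997 genes tested (3.39%). By voom with the deposited denominators 6 did (the same 3 with Col9a1, Eln and Vcan), each higher, beside 549 higher of the 15997. Nothing is read from these counts. The libraries did not overlap for 17 of the 63 genes with higher and 5 with lower mutant values, beside 18.2% higher and 18.3% lower over all genes tested.

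The 4 other fibrillar collagen genes that passed the filter all had positive differences, with a median of 0.25. Among them Col2a1, which encodes the collagen of cartilage and vitreous, was at 0.704 and 0.807 FPKM in the mutant and 0.662 and 0.452 FPKM in the control libraries (limma adjusted p = 0.811). The other fibril-associated collagens had a median of 0.17, with 2 genes higher and 2 lower. The 8 other small leucine-rich proteoglycans that passed had a median of 0.11. Of these Ogn, which encodes osteoglycin, was at 104 and 96.1 FPKM against 85.0 and 102 FPKM and overlapped. Optc, which encodes opticin of the vitreous, was at 11.5 and 12.1 FPKM against 9.67 and 7.90 FPKM, a log2 difference of 0.43 (SE 0.13, limma adjusted p = 0.736). Both were more abundant than Bgn in every library, and Dcn was nearly absent.

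The genes for processing and crosslinking of collagen, 20 of which passed, had a median of 0.02. The collagen chaperone gene Serpinh1 was at 29.5 and 32.1 FPKM against 30.5 and 29.9 FPKM, and the prolyl hydroxylase gene P4ha1 was at 42.1 and 36.6 FPKM against 37.5 and 40.7 FPKM. Their levels were far above those of the fibrillar collagens, and the groups overlapped for both. Pcolce, whose product enhances cleavage of procollagen, was at 6.82 and 6.43 FPKM against 5.58 and 4.90 FPKM, a log2 difference of 0.34 (SE 0.12, limma adjusted p = 0.769). The other matricellular and elastic matrix genes, 20 of which passed, had a median of 0.12. Sparc, which encodes a collagen-binding protein of basement membranes, was the most abundant gene of the 6 lists, which hold no type IV collagen or laminin gene, at 234 and 238 FPKM against 260 and 238 FPKM, and its groups overlapped. The largest differences in this list went opposite ways. Vtn, which encodes vitronectin, had 4 and 4 mutant reads against 28 and 6 control reads (log2 difference -1.16, SE 0.62, limma adjusted p = 0.811), and Ltbp2, a microfibril gene, had a log2 difference of 0.73 (SE 0.27, limma adjusted p = 0.787). The 7 receptor genes for collagen and osteopontin that passed had a median of -0.10, and Cd44, an osteopontin receptor, was at 9.59 and 8.39 FPKM against 8.81 and 9.72 FPKM.

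Markers of other cells were set beside the matrix genes. Of 9 macrophage markers, 7 were higher in both mutant libraries than in both controls, and none was lower in both. All 5 that passed the filter were among these, beside 18.2% of all genes tested. C1qb, C1qc and Tyrobp passed it through their mutant level, since their control means lay under 0.1 FPKM, so nothing is read from the count. Their summed level was 3.24 and 3.13 FPKM in the mutant and 0.907 and 0.638 FPKM in the control libraries, from 64 and 84 against 29 and 18 reads. Adgre1, which encodes the F4/80 antigen, had 1 read in each mutant library and 0 in the controls, and Aif1 was at 0 in mutant replicate 1 and control replicate 1. Tyrobp, an adaptor of myeloid cells, had 16 and 9 mutant reads against 0 and 1 control reads (log2 difference 2.99, SE 0.49, limma adjusted p = 0.348). Cd68 was at 0.268 and 0.650 FPKM in the mutant libraries and C1qc at 0.174 and 0.423 FPKM, both higher in replicate 2 as Spp1 was, while C1qa (1.02 and 0.638 FPKM) and Tyrobp (1.35 and 0.689 FPKM) were higher in replicate 1. In sum the macrophage markers were higher in the same group as Spp1. Their part in the Spp1 values was not tested.

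Other markers moved within the groups. Of the 3 lens epithelial markers, Foxe3 was at 103 and 122 FPKM in the mutant and 109 and 119 FPKM in the control libraries. Pax6 was at 7.03 and 6.80 FPKM against 7.18 and 6.62 FPKM. Cdh1 was at 5.81 and 10.1 FPKM against 12.1 and 8.25 FPKM, an order that neither Foxe3 nor Pax6 shared in both groups. Mutant replicate 2 and control replicate 1 were the libraries with more Cdh1 and more Xist in their group. They were also the libraries of their group with more Col1a2, Col5a1, Col9a2 and Bgn, although the control values of Col9a2 were nearly equal (1.76 and 1.74 FPKM). Col1a1, Col3a1, Col5a2 and Postn went the other way in the controls, with more in control replicate 2, and Dcn and Spp1 were at 0 in both controls. The part of these markers in the levels of the 4 genes was not tested.

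**Figure D4:**
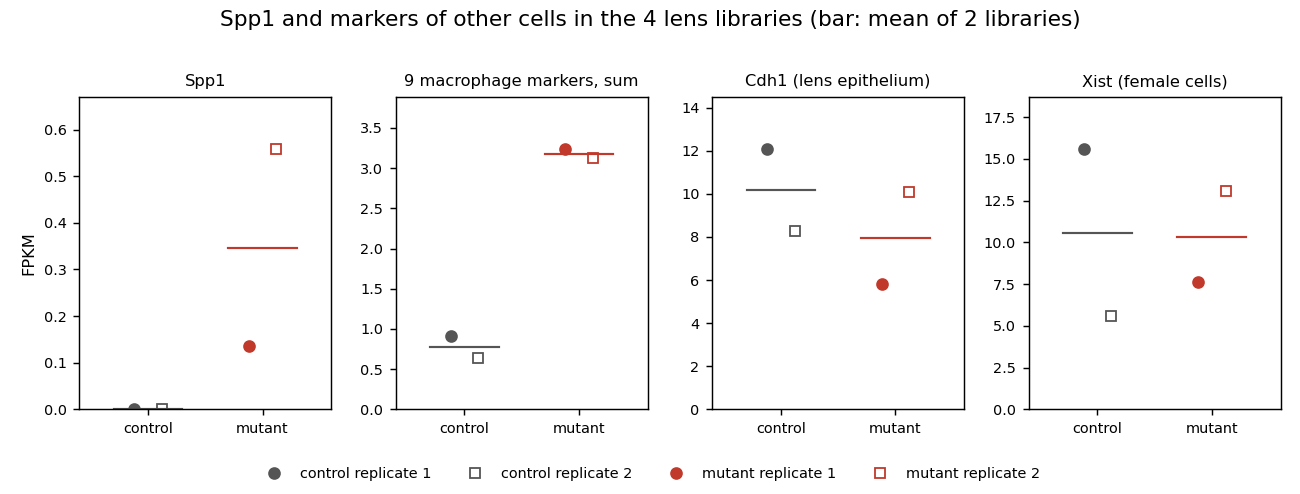
FPKM (vertical axes, linear from 0) of Spp1, of 9 macrophage markers summed, and of Cdh1 and Xist in control (grey) and mutant (red) libraries, with bars for the mean of 2 libraries. The macrophage sum is 3.24 and 3.13 in the mutant against 0.907 and 0.638 in the control libraries, whereas Cdh1 and Xist differ within each group more than between the groups.

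When libraries of like Xist level were compared, a choice made after these values were seen, the log2 differences of most of the genes were positive in both pairs. For mutant replicate 1 against control replicate 2, the libraries with less Xist, they were 0.96 for Col1a1, 0.25 for Col1a2, 0.29 for Col5a1, 0.61 for Col9a2, 0.50 for Bgn and 0.35 for Postn. For mutant replicate 2 against control replicate 1 they were 1.48 for Col1a1, 0.33 for Col1a2, 0.44 for Col5a1, 0.82 for Col9a2, 0.61 for Bgn and 0.53 for Postn. Col1a2 and Col5a1, which overlapped between the groups, were higher in the mutant library of each such pair. As both the genes and the pairs were chosen with these values known, nothing is read from that. Col5a2 had -0.01 in one pair and 1.04 in the other, and Spp1 had 1.24 and 2.72.

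Markers of fibroblasts, the usual source of type I collagen and decorin, were in sum lower in both mutant libraries than in both controls. Their summed level over 8 genes was 4.68 and 5.82 FPKM in the mutant and 6.27 and 6.07 FPKM in the control libraries, and most of it was Pdgfra, which the lens epithelium also expresses. The fibroblast genes Twist2, Dpt and Pi16 had 0 reads in both mutant libraries. Corneal epithelial keratins Krt12, Krt5 and Krt14 had 1 to 3 reads in all per library. The 8 bone and cartilage markers summed to 0.864 and 0.597 FPKM in the mutant and 1.21 and 1.17 FPKM in the control libraries. Among them Runx2 had 8 and 12 mutant reads against 4 and 4 control reads, Bglap 1 and 5 against 6 and 9, and Alpl 46 and 9 against 48 and 20, while Ibsp and Acan were at 0 in all 4 libraries.

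The genes whose pattern over the 4 libraries was most like the mean of the type I collagen genes were sought among 9387 protein-coding genes. These had a mean of at least 0.5 FPKM. The measure was the Euclidean distance to the mean centred log2 profile of Col1a1 and Col1a2. With log2 differences of 1.22 for Col1a1 and 0.29 for Col1a2, this mean was the profile of neither gene. The nearest were Tmem267 (distance 0.122), Myl12b (0.142), Abraxas1 (0.146), Pawr (0.155) and Txnip (0.168), each with a log2 difference between 0.68 and 0.75. With 4 libraries, such likeness is a description of these libraries.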

How the data were processed

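Per the paper's methods, the authors' sequencing provider used HISAT2 for alignment and featureCounts for counting, then derived FPKM; the deposited table holds FPKM of 56748 genes in 4 libraries with gene lengths and positions (build mm39, per the submitters' processing notes), and 0 sample columns were left unused. FPKM times gene length gave whole reads for 100% of values above 0 (within 0.01 read). The denominators of the FPKM were 0.944 to 1.05 times the recovered totals. Limma (lmFit, then eBayes with trend) was fitted to log2(FPKM + 0.1) of every gene averaging 0.1 FPKM or more, and P values were adjusted by Benjamini-Hochberg. Voom on the recovered reads was the alternative count model, since FPKM are not counts; the tests were tried on simulated data. The members and gene lists were chosen with earlier results of these data known. Named genes are the 10 members, the 3 most abundant and 2 most changed of each list, listed genes past a test, and 5 genes of like pattern, given where a result turned on them. Adgre1, Aif1, Twist2, Dpt, Pi16, Ibsp, Acan, Eln, Vcan, Bfsp1, Lim2, Lum, Kera, Omd and Epyc were named after their values were seen. The replicate numbers were not used to pair the libraries in the main fit. Software was R 4.3.3, limma 3.58.1, Python 3.11.15, numpy 2.4.6, pandas 2.3.3, scipy 1.17.1 and matplotlib 3.10.9.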

Additional observations from a re-analysis of the deposited data

How the results depend on the processing

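The median log2 difference of the 10 genes, 0.48, was 0.163 with a pseudocount of 1, and leaving out 1 library at a time gave 0.274 to 0.711; it stayed within the spread between replicates under the other alternatives. Of the values of single genes under all alternatives, 141 stayed within the replicate spread, 28 moved beyond it in the same direction or to 0, and 1 reversed, Col3a1 at -0.0475 without control replicate 1 (range over the left-out libraries -0.0475 to 0.233). The filters, the trend, the replicate block and limma's sex term cannot change a log2 difference here. The values and the median under them were thus fixed beforehand, and these values are counted among the 141. The moved values were mostly those of Col1a1, Spp1, Dcn and Postn under another pseudocount or voom. For Spp1 the difference was 0.41 with a pseudocount of 1 and 4.85 with 0.01.

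Of all genes, 6 passed the adjusted threshold. The number was 2 with a pseudocount of 1 or 0.01, with a minimum mean of 1 FPKM or without the trend, 1 without the filter and 0 by voom on library totals (779 genes at an unadjusted p under 0.05), and it was 0 when any 1 library was left out. With the replicate block it was 3. The deviations of same-numbered libraries had a correlation of -0.00508 over genes. This gave no sign of pairing by number, but it cannot show that the libraries were unpaired. Among alternatives chosen after seeing the data, a term for sex makeup (Xist above or below its mean) gave 1, voom with the deposited denominators 14, and both together 135. That last setting alone called 1 other matrix gene, Col9a1. It was also the only setting that called 1 of the 10 genes, beside the 135 of all genes. As the 10 were selected on this comparison, nothing is read from that. The cause of these changes was not tested. Depth limits Col1a1, Col3a1, Dcn and Spp1 most, with at most 40 reads in any library.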

Other observations

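Endothelial markers mostly had negative log2 differences between mutant and control, although none passed limma's test at an adjusted p under 0.05. Of 7 endothelial markers that passed the filter, 6 had a negative log2 difference, beside 7880 of all 15997 genes tested, and their median was -0.33. By voom with the deposited denominators 1 was lower at an unadjusted p under 0.05, beside 640 lower of the 15997, and by limma none was. Tie1, an endothelial receptor, was at 0.433 and 0.260 FPKM in the mutant and 0.586 and 0.640 FPKM in the control libraries (log2 difference -0.70, SE 0.29, limma adjusted p = 0.805). The pericyte marker Rgs5 was at 3.43 and 2.47 FPKM against 4.60 and 4.30 FPKM (log2 difference -0.59, SE 0.18, limma adjusted p = 0.736). Its list as a whole did not go that way. Of 5 pericyte and smooth muscle markers that passed the filter, 3 had a positive and 2 a negative log2 difference, with a median of 0.17. Acta2, the smooth muscle actin also used as a mark of myofibroblasts, was at 12.6 and 11.0 FPKM against 9.79 and 11.2 FPKM, and its groups overlapped. The lens fibre gene Lgsn was at 19.0 and 5.54 FPKM in the mutant and 28.5 and 41.0 FPKM in the control libraries. It was the only gene of the lists that passed voom's test with the deposited denominators (log2 difference -1.75, SE 0.27, adjusted p = 0.00314), and its adjusted p by limma was 0.769.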
